A study of Mus musculus with 21 samples.

Results

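Afp, H19, Igf2, Gpc3, Cd24a, Prom1, Sox4, Dlk1 and Ly6d were followed as a set of 9 genes known from the fetal liver, from liver progenitor cells or from liver tumours. They were picked out by gene symbol, and all 9 symbols were present among the 55418 symbols counted in each of 21 whole mouse liver libraries. The libraries formed 4 groups by genotype and diet. On chow, 6 libraries came from mice labelled wild type for Mboat7 (WT) and 7 from mice with Mboat7 deleted in hepatocytes (KO), all 10 weeks old. The other diet, abbreviated HFMCD, was rich in fat, poor in methionine and choline-deficient. It was given for 6 weeks from an age of 6 to 8 weeks, and 4 WT and 4 KO libraries came from it. The transgene or promoter that drove the deletion, the sex and the strain were not given in the sources used here, and no agent other than the diet was named. The libraries of a group are taken as separate animals from their titles alone, so p-values measure the spread between these libraries. The age of the mice and the range of the numbers in the titles changed with the diet and cannot be told apart from it.

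In the fetal liver, hepatoblasts give rise to both hepatocytes and bile duct cells, and they express genes that are shut down after birth. Afp, a serum carrier protein related to albumin, is the classical example and is used as a marker of liver tumours. H19 and Igf2 lie side by side in an imprinted cluster, where H19 is a long non-coding RNA and Igf2 a growth factor. Dlk1 is an imprinted surface protein of hepatoblasts, and Gpc3 is a heparan sulfate proteoglycan of the cell surface. Cd24a and Prom1 are surface proteins of bile duct and progenitor cells, and Sox4 is a transcription factor of developing bile ducts. Ly6d is a small membrane-anchored protein of lymphoid precursors and of some epithelia.

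Mboat7, the acyltransferase deleted in the KO mice, was lower in all KO libraries than in any WT library. Its level was 33.0 to 39.7 CPM (counts scaled to the size of each library) in WT on chow and 18.8 to 24.1 in KO on chow, and 34.7 to 38.1 and 15.8 to 20.8 on HFMCD. Libraries held 17502231 to 25822972 counts. Albumin was between 56870 and 97640 CPM in every library. Some chow libraries stood apart. KO chow replicate 7 carried skeletal muscle RNA, with a summed level of 13 muscle genes of 2659 CPM against at most 11.0 in any other library. Dmbt1, a mucosal glycoprotein of ducts and glands, was at 95.6 CPM in KO chow replicate 1, 54.6 in KO chow replicate 7, 41.7 in WT chow replicate 3 and 27.6 in WT chow replicate 5, and at most 0.596 in the other chow libraries. Results that rest on these libraries are given with and without them.

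The loci were taken from GENCODE release M21 on GRCm38. Afp lies on chromosome 5 from 90490737 to 90508907 on the plus strand. Sox4 is a gene of 1 exon on chromosome 13 from 28948919 to 28953713 on the minus strand, and 2616 of its 4795 exonic bases lie under the opposite-strand lincRNA gene Gm26735. Gm26735 itself had a mean of at most 0.0639 CPM in any group, while Sox4 was at 5.31 or more. The annotation puts H19, a lincRNA, on chromosome 7 from 142575529 to 142578143 and Igf2 at 142650766 to 142666816, both on the minus strand. Of the 5723 exonic bases of Igf2, 3596 are shared with the same-strand gene Gm49394, which had 0 counts in all groups, so that a counting rule that drops shared reads could lose reads of Igf2. Cd24a is on chromosome 10, Prom1 on chromosome 5, Dlk1 on chromosome 12, Gpc3 on chromosome X and Ly6d on chromosome 15. Cd24a has a stretch of 218 bases of at least 95% identity to Gm6212, which had 0 counts.

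Promoter sequences of Afp and Sox4 show how differently these genes start, and the microRNAs inside H19 show what that RNA carries. The RefSeq table on GRCm38.p6 matched 6 of the 9 genes. The windows below are the 250 bases before the transcript start, with capitals for letters searched on both strands: GTTAAT (an HNF1-type site, in 6.43% of 32851 promoter windows of this length), TATAAA (12.4%), CCAAT (33.8%), GGGCGG (32.7%) and GGAATG (a TEAD-type site, in 12.6%). A match is a run of letters, not evidence of binding.
Afp promoter, chr5:90490464-90490713, plus strand: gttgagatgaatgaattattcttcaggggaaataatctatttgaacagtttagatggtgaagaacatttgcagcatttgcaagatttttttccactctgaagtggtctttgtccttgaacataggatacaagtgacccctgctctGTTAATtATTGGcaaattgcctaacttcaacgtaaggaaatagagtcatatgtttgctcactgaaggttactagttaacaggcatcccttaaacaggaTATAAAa
Sox4 promoter, chr13:28953700-28953949, minus strand: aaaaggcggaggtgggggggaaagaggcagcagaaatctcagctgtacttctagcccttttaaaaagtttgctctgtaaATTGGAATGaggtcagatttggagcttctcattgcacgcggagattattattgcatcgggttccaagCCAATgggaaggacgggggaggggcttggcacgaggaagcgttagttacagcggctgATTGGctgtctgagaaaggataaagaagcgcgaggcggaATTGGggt
The Afp window has 36.0% G or C and 1 CpG, against a median of 52.4% and 6 over all windows. It holds GTTAAT once, CCAAT once on the other strand and TATAAA once, ending 2 bases before the RefSeq start. That start lies upstream of the GENCODE start given above for Afp. The Sox4 window has 50.8% G or C and 11 CpG. It holds CCAAT 4 times, 3 of them on the other strand, and GGAATG once, sharing letters with one of them. For Sox4, the RefSeq start lies downstream of the GENCODE start. The last bases of its window, with the last CCAAT match, therefore lie inside the GENCODE exon. The Gpc3 window stands at the other end of the range, with 71.6% G or C, 25 CpG and GGGCGG 3 times. The mature RNAs of miR-675, whose hairpin lies inside an H19 exon on chromosome 7 from 142577064 to 142577147, are shown with the seed (bases 2 to 8) in capitals.
miR-675-5p: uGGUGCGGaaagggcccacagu
miR-675-3p: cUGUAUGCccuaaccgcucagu
The seeds of the 2 arms differ. The hairpin gene itself had 0 counts in all groups, and the libraries do not measure the mature forms.

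Livers on HFMCD expressed more of 6 of the 7 testable genes than livers on chow, in each genotype. In WT these were Ly6d, Afp, H19, Gpc3, Cd24a and Sox4, which were called higher by edgeR's quasi-likelihood test at a Benjamini-Hochberg adjusted p under 0.05. In KO they were the same apart from H19, which did not pass, and Prom1, which did. Across all 15677 tested genes, 29.0% were called higher in WT and 33.7% in KO. The 6 genes in WT, and 6 in KO, also had every HFMCD library above every chow library, against 23.1% and 25.7% of all tested genes. The median log2 fold change of the 7 genes was 2.20 in WT and 2.22 in KO, against -0.05 and -0.02 over all tested genes. Igf2 and Dlk1 had too few reads to be tested.

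**Figure D1:**
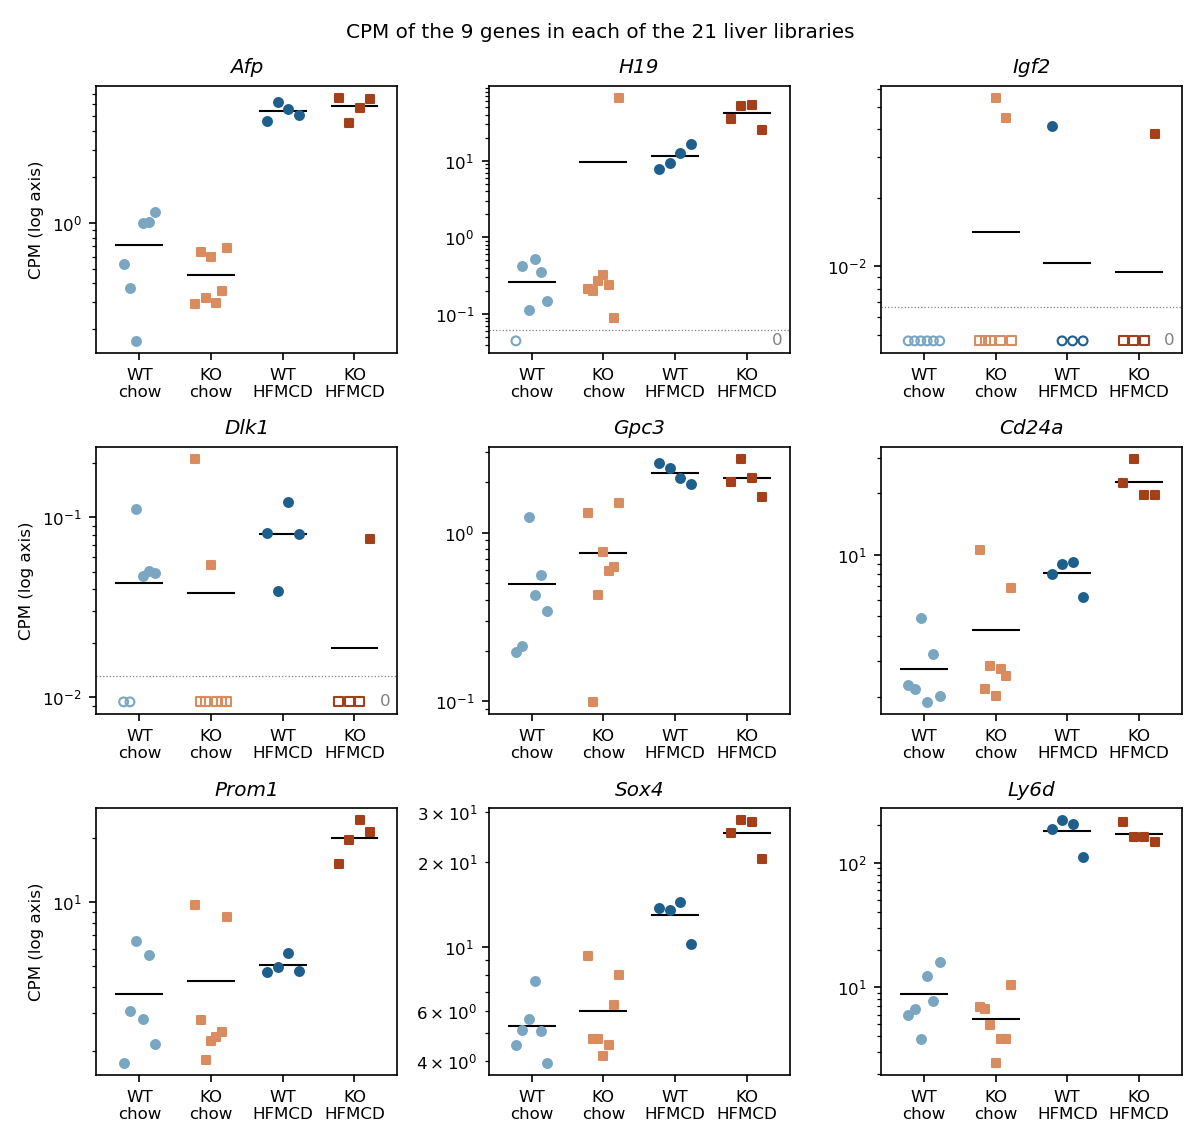
CPM of each of the 9 genes (log axes) in the 21 libraries by group, with the mean as a bar; open symbols under the dotted line mark libraries with 0 reads. Ly6d and Afp separate by diet, Cd24a, Prom1, Sox4 and H19 are highest in KO on HFMCD apart from H19 in KO chow replicate 7 at 65.7 CPM, and Igf2 is at or near 0 throughout.

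Ly6d changed most among the genes called in both genotypes. On chow, WT libraries held a lowest value of 3.80, a median of 7.15 and a highest of 16.0 CPM, and KO libraries 2.45, 4.92 and 10.4. On HFMCD, the 4 WT libraries held 188, 220, 205 and 112 CPM and the 4 KO libraries 212, 162, 161 and 146. Even the lowest HFMCD library was far above the highest on chow, and WT and KO overlapped. The fold change was 20.7 in WT (log2 4.37, SE 0.36, adjusted p 9.8e-09, edgeR) and 30.3 in KO (log2 4.92, SE 0.35, adjusted p 8.1e-10). Markers of B cells and of stratified epithelium, in which Ly6d is also known, were measured in the same libraries. Summed CPM of 10 B cell genes went from 3.88 to 19.9 in WT on chow to 22.3 to 29.5 on HFMCD, and overlapped in KO (11.6 to 29.3 and 16.1 to 26.0). Of the markers of stratified epithelium, Krt15, Krt6a, Krt13, Dsg3 and Lypd3 were at 0 in all 4 groups, but Sprr1a, a protein of the cornified envelope, was called higher on HFMCD as Ly6d was (edgeR adjusted p 5.8e-11 in WT and 2.8e-11 in KO). Sprr1a had 0 reads in all WT chow libraries and at most 0.107 CPM in KO on chow, and 3.73 to 7.71 CPM in WT and 4.12 to 7.27 in KO on HFMCD. Of the 3 tested genes of that list, Perp was called lower on HFMCD in WT (log2 -0.22, adjusted p 0.022, edgeR) and not in KO. The 10 genes other than Perp and Sprr1a summed to 0.638 to 2.40 CPM on chow and 1.46 to 2.15 on HFMCD in WT. In KO they summed to 1.09 to 2.78 and 1.12 to 2.68. The part of these markers in the Ly6d difference was not tested. In bulk tissue, fewer cells of a type and less RNA per cell cannot be told apart.

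Afp rose with HFMCD from a level close to the limit of counting. On chow it had 3 to 24 reads per WT library (lowest 0.168, median 0.764, highest 1.18 CPM), and KO libraries held 0.295, 0.357 and 0.684 CPM. WT on HFMCD held 4.70, 6.25, 5.61 and 5.15 CPM, and KO on HFMCD 6.59, 4.52, 5.69 and 6.49. The diets did not overlap in either genotype, and WT and KO overlapped on both. Afp was 7.51-fold higher on HFMCD in WT (log2 2.91, SE 0.31, adjusted p 2.2e-08, edgeR) and 12.6-fold in KO (log2 3.65, SE 0.30, adjusted p 2.8e-10).

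H19 was barely detected on chow, with 0 to 11 reads per WT library and 0.0892 to 0.327 CPM in KO libraries other than replicate 7. It reached 7.87, 9.38, 12.5 and 16.4 CPM in WT on HFMCD, above every WT chow library. The difference in WT was 5.43 on the log2 scale (SE 1.76, adjusted p 0.0126, edgeR). In KO, H19 was at 35.1, 52.0, 53.6 and 25.6 CPM on HFMCD, but the muscle-containing KO chow replicate 7 was at 65.7. The KO comparison therefore gave 2.10 with an SE of 1.14 and an adjusted p of 0.11, and 7.53 (SE 0.41, adjusted p 9.8e-12) without KO chow replicates 1 and 7. Adult skeletal muscle is a tissue that keeps H19 expression. Replicate 7 held Ttn, the giant muscle protein, at 331 CPM, with no more than 0.732 elsewhere. The part of muscle RNA in its H19 level was not tested.

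Igf2, the partner of H19 in the cluster, was practically not counted in any group. All 21 libraries together held 4 Igf2 reads, none in WT on chow. Reads shared with Gm49394 may have been dropped in counting, so that the level of Igf2 could be too low. Dlk1 had at most 5 reads in a library, and KO chow replicate 1 was the highest at 0.211 CPM. In WT on HFMCD, Dlk1 was at 0.0824, 0.0391, 0.121 and 0.0811 CPM, while 3 of the KO libraries had no read and the other was at 0.0755. Exact two-sided permutation tests of Igf2 and Dlk1 over the 4 comparisons between groups (8 tests) gave no p under 0.05, and the smallest was 0.0571 for Dlk1, KO against WT on HFMCD (adjusted p 0.457). At this depth, 3 reads over a whole group correspond to 0.0302 CPM in WT on HFMCD, so changes below that were not detectable.

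Gpc3 was at a lowest value of 0.195, a median of 0.384 and a highest of 1.23 CPM in WT on chow, the highest being replicate 3. KO on chow held 0.0993, 0.625 and 1.51. HFMCD libraries held 2.60, 2.42, 2.10 and 1.95 CPM in WT and 1.99, 2.72, 2.10 and 1.62 in KO. All of them were above every chow library of their genotype, in KO by as little as 1.08 times. The diet difference was 2.20 on the log2 scale in WT (SE 0.45, adjusted p 0.00017, edgeR) and 1.45 in KO (SE 0.41, adjusted p 0.0032), and 2.06 in KO without chow replicates 1 and 7. Without the 4 chow libraries rich in Dmbt1, the difference in WT was 2.91. The libraries left out include the highest chow libraries of each genotype in Gpc3, so that leaving them out raises these differences.

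Sox4 and Cd24a were called higher with the diet in both genotypes, and Prom1 in KO. In WT, Sox4 differed by 1.29 (log2, SE 0.20, adjusted p 7.1e-06, edgeR) and Cd24a by 1.57 (SE 0.40, adjusted p 0.0022). Prom1 in WT differed by 0.46 (SE 0.46, adjusted p 0.40), and its 4 HFMCD libraries fell within the range of the chow libraries. Without the 4 chow libraries rich in Dmbt1, the Prom1 difference in WT was 1.03 with an edgeR adjusted p of 7.6e-05. Those left out of WT, replicates 3 and 5, were its highest chow libraries in Prom1 (6.60 and 5.67 CPM). Leaving them out raises the difference, so this call is no independent support for it. In KO, the diet difference was 2.08 for Sox4 (SE 0.19, adjusted p 1.5e-09), 2.41 for Cd24a (SE 0.37, adjusted p 9.6e-06) and 2.22 for Prom1 (SE 0.41, adjusted p 0.00011). The last 2 values were 3.21 and 3.10 without KO chow replicates 1 and 7, the highest KO chow libraries in these genes.

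**Figure D2:**
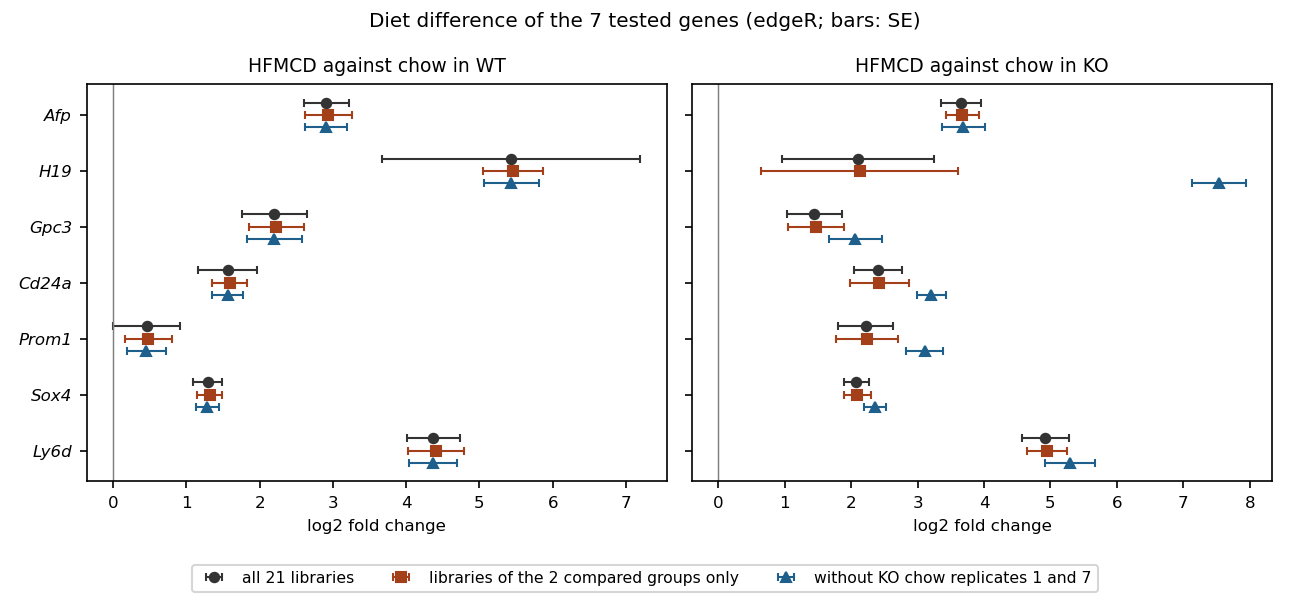
Log2 fold change between HFMCD and chow (horizontal axis) of the 7 tested genes in WT (left) and KO (right), with SE as bars, over all 21 libraries, over the compared groups only, and without KO chow replicates 1 and 7. H19 in KO moves from 2.10 to 7.53 when the 2 libraries are left out, and Prom1 in WT lies nearest to 0 at 0.46.

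The diet comparison took place beside large shifts in cell type markers. On HFMCD, summed CPM of 13 macrophage genes was 1950 to 2309 in WT against 237 to 621 on chow, and that of 15 genes of dividing cells 159 to 273 against 36.8 to 43.7. Stellate cell and fibroblast genes summed to 1402 to 1702 against 297 to 430. In KO, the same 3 lists were at 1974 to 2532, 148 to 338 and 1794 to 2072 CPM on HFMCD, against 338 to 447, 37.6 to 49.0 and 301 to 663 on chow. Bile duct and progenitor genes, the list nearest to Cd24a, Prom1 and Sox4, summed to 378 to 424 CPM against 136 to 178 on chow in WT, and to 783 to 1046 against 116 to 216 in KO. Of its 17 tested genes, 9 were called higher in WT and 14 in KO. Of 16 hepatocyte genes, albumin among them, 9 were called lower and 1 higher on HFMCD in WT, and 11 and 0 in KO. The shares of all genes called lower were 33.6% and 36.0%, and called higher 29.0% and 33.7%. The part of these lists in the changes of the 9 genes was not tested.

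On HFMCD, 4 of the 7 testable genes were higher in every KO library than in any WT library: Prom1, Cd24a, H19 and Sox4. Such a lack of overlap was found for 4.96% of all tested genes. None of the 7 passed the test in the model of all 21 libraries, which called 0.319% of all genes (50 genes, with 1562 at an unadjusted p under 0.05). When only the 8 HFMCD libraries were fitted, all 4 were called higher, and 1.5% of all genes were. The estimates were nearly equal in both fits, while the standard errors were smaller without the chow libraries, where KO replicates 1 and 7 were high in Prom1, Cd24a and Sox4 and replicate 7 in H19. Afp, Gpc3 and Ly6d overlapped between WT and KO on HFMCD.

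Sox4 came closest to the threshold. Its 4 WT libraries on HFMCD held 13.8, 13.6, 14.4 and 10.3 CPM and its 4 KO libraries 25.3, 28.0, 27.6 and 20.4. The lowest KO library was 1.41 times the highest WT library. The log2 fold change was 0.96 (SE 0.21, adjusted p 0.0502, edgeR) in the model of all libraries and 0.95 (SE 0.13, adjusted p 0.0037) with HFMCD libraries alone. It passed in 5 of 21 fits that left out 1 library (KO chow replicate 1, 4, 5 or 7 or WT chow replicate 4), and by DESeq2 with an adjusted p of 0.0051.

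Prom1 had the widest separation. WT libraries on HFMCD held 4.70, 4.96, 5.77 and 4.74 CPM, and KO libraries 15.1, 19.6, 24.3 and 21.3, so that the lowest KO library was 2.62 times the highest WT library. Prom1 was 3.98-fold higher in KO (log2 1.99, SE 0.49, adjusted p 0.0978, edgeR), and with HFMCD libraries alone the log2 value was 1.98 (SE 0.15, adjusted p 6.3e-05). DESeq2 gave an adjusted p of 0.016, in a fit that called 0.727% of all genes higher. Leaving out KO chow replicate 1 alone gave an edgeR adjusted p of 0.040.

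Cd24a held 7.99, 9.03, 9.24 and 6.16 CPM in WT on HFMCD and 22.5, 29.5, 19.6 and 19.7 in KO. The log2 fold change was 1.49 (SE 0.42, adjusted p 0.166, edgeR) over all libraries and 1.48 (SE 0.16, adjusted p 0.00083) with HFMCD libraries alone. Without KO chow replicate 1 its adjusted p was 0.035. H19 was 1.85 higher on the log2 scale in KO on HFMCD (SE 1.35, adjusted p 0.715), and 1.84 (SE 0.30, adjusted p 0.024) with HFMCD libraries alone. Its SE over all libraries contains the spread of KO chow replicate 7, and leaving out KO chow replicates 1 and 7 gave 1.85 with an SE of 0.28 and an adjusted p of 0.0027. Without replicate 7 alone the adjusted p of H19 was 0.0078. In the fit without both libraries, Prom1, Cd24a and Sox4 were called too (adjusted p 0.00097, 0.00093 and 0.0035), and 0.726% of all genes were called higher. The same 4 were called without the 4 chow libraries rich in Dmbt1, where the share of all genes was 0.904%. KO chow replicates 1 and 7, left out in each of these fits, were chosen from their counts. They were the highest of KO on chow in Prom1, Cd24a and Sox4, and replicate 7 was in H19. Leaving them out lowers the SE of these genes, so these calls are no independent support for a difference.

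For the other 3 genes, the log2 difference between KO and WT on HFMCD was 0.10 for Afp (SE 0.30, adjusted p 0.96, edgeR), -0.10 for Gpc3 (SE 0.44) and -0.09 for Ly6d (SE 0.36). With HFMCD libraries alone the SE was 0.16, 0.21 and 0.20.

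**Figure D3:**
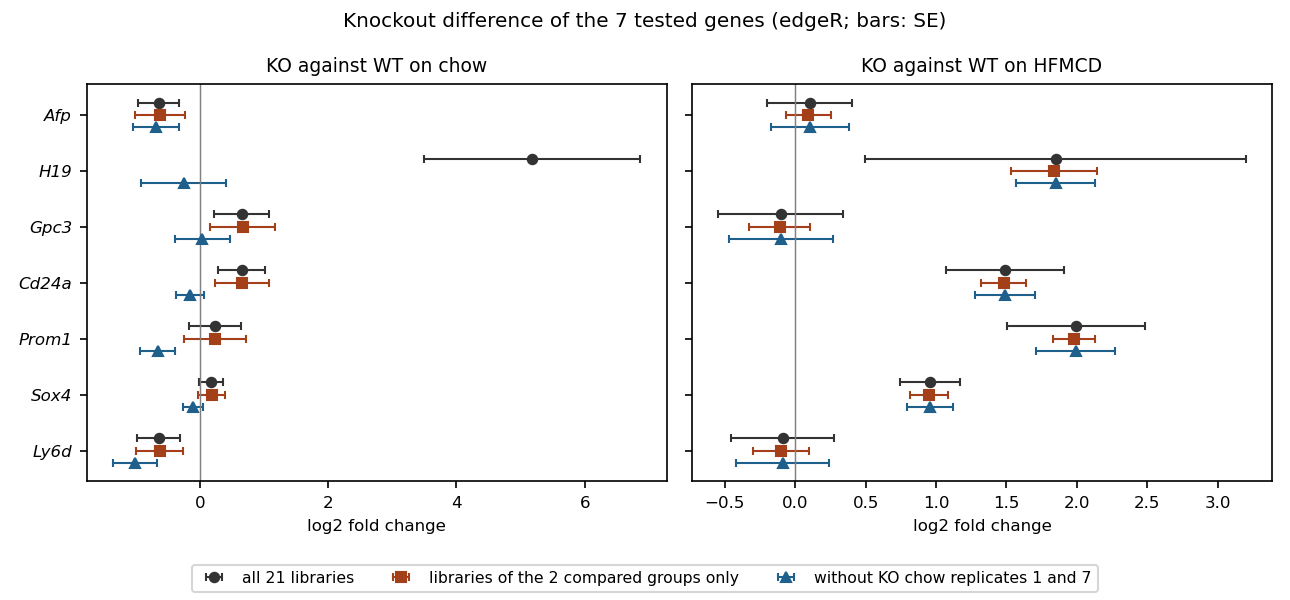
Log2 fold change between KO and WT (horizontal axis) of the 7 tested genes on chow (left) and on HFMCD (right), with SE as bars, over all 21 libraries, over the compared groups only (H19 was not tested there on chow), and without KO chow replicates 1 and 7. On HFMCD the estimates of Prom1, Cd24a, H19 and Sox4 stay at 1.99, 1.49, 1.85 and 0.96 while their SE shrinks, and on chow H19 goes from 5.18 to -0.25.

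Markers of bile duct and progenitor epithelium moved with Prom1, Cd24a, H19 and Sox4 on HFMCD. In a list of 19 such genes, which holds none of the 9, 6 of 17 tested were called higher in KO and none lower, against 0.223% of all genes called higher, with a median log2 fold change of 0.82 against 0.01 over all genes. Epcam, an adhesion protein of bile duct cells, was called at 1.80 (SE 0.37, adjusted p 0.0433, edgeR), and Sox9, a transcription factor of the same cells, at 0.94 (SE 0.21, adjusted p 0.0481). The other leading genes were Pkhd1, Spp1 and Cldn7, at 0.82, 1.60 and 1.81. With 1 library left out, the calls of Epcam and Sox9 held in 7 of 21 fits, that of Cldn7 in 8, of Spp1 in 12 and of Pkhd1 in 14. The summed level of the list was 378 to 424 CPM in WT and 783 to 1046 in KO, with no gene at 0 throughout either group. Mesothelial genes summed to 8.67 to 11.4 CPM in WT and 16.4 to 27.8 in KO, and stellate cell and fibroblast genes to 1402 to 1702 and 1794 to 2072. Gallbladder and gland genes other than Pigr and Ly6d summed to 2.43 to 3.24 and 6.04 to 10.6, with Muc6 at 0 in both groups. The mesothelial list shares Krt19 with the bile duct list, and the gallbladder list shares Cldn4, so their sums partly repeat it. Krt19 was at a mean of 2.17 CPM in WT and 6.45 in KO on HFMCD. Of 15 genes of dividing cells, all had an estimate above 0 (median 0.39), while their sums overlapped (159 to 273 and 148 to 338). Mcm6, a subunit of the replicative helicase, was called (0.65, SE 0.14, adjusted p 0.0481, edgeR), a call that held in 6 of 21 fits with 1 library left out. Of 16 hepatocyte genes, none was called, and 1 had an estimate above 0 (median -0.26). Among them, 6 were lower in every KO library than in any WT library, against 3.66% of all genes. The part of these lists in the higher levels of the 4 genes was not tested.

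On chow, none of the 7 genes passed the test between KO and WT livers, and 2.17% of all genes were called (340 genes, with 2806 at an unadjusted p under 0.05). None of the 7 had groups without overlap, which was rare among all tested genes (0.236% higher and 0.421% lower in KO). The estimates depended on KO chow replicates 1 and 7. These were the highest KO libraries in Cd24a (10.6 and 6.84 CPM, against 2.02 to 2.83 in the other 5), in Prom1 (9.69 and 8.48) and in Sox4 (9.31 and 7.98). H19 gave 5.18 on the log2 scale (SE 1.68, adjusted p 0.12, edgeR) with replicate 7, and -0.25 without the 2 libraries. DESeq2 called H19 on chow (adjusted p 0.0027) and 1.48% of all genes higher. Without the 2 libraries, Cd24a went from 0.65 to -0.15, Prom1 from 0.23 to -0.65, Sox4 from 0.17 to -0.11 and Gpc3 from 0.65 to 0.04. Afp and Ly6d were both at -0.64 (SE 0.32 and 0.33, adjusted p 0.30 and 0.32). Ly6d was at -1.01 without the 2 libraries and -1.24 without the 4, with adjusted p of 0.15 and 0.088, and Afp at -0.68 and -0.79, so that neither gene was called.

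A KO effect that differed from one diet to the other passed the test for none of the 7 genes in the model of all libraries, and 0.0% of all genes passed (1581 had an unadjusted p under 0.05). Prom1 had a difference of 1.76 (log2, SE 0.63, adjusted p 0.35, edgeR), Sox4 of 0.78 (SE 0.28, adjusted p 0.34) and Cd24a of 0.84 (SE 0.55, adjusted p 0.66). Without KO chow replicates 1 and 7, the edgeR difference was called for Prom1 (2.65, adjusted p 0.0027), Cd24a (1.64, adjusted p 0.012) and Sox4 (1.07, adjusted p 0.031). In that fit, 0.418% of all genes were called higher. The 2 libraries left out were the highest of KO on chow in these genes, so that leaving them out raises the difference. These calls are therefore no independent support for it. H19 went from -3.33 to 2.10 and was not called in either fit. WT chow replicates 3 and 5, which also carried Dmbt1, stayed in that fit. When they were left out as well, Prom1 and Cd24a were called and Sox4 was not (adjusted p 0.057), with 0.291% of all genes called higher.

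Compared per length of exon, Ly6d was the most abundant of the 9 in every group. The lengths include exonic bases that overlap other genes. If reads there were dropped in counting, Sox4 and Igf2 could stand too low in the order. In WT on chow it stood at 11.7 CPM per kilobase (SD 6.08, n = 6), followed by Sox4 at 1.11 and Cd24a at 1.07, which overlapped each other, then Prom1, Afp, Gpc3, H19, Dlk1 and Igf2. From Sox4 on, each gene's range overlapped the next. In KO on HFMCD the order was Ly6d at 229 (SD 38.7, n = 4), H19 at 16.9, Cd24a at 8.84, Sox4 at 5.28, Prom1 at 2.80, Afp at 1.73 and Gpc3 at 0.783 CPM per kilobase, with Dlk1 and Igf2 last. There, H19 and Cd24a overlapped, as did Dlk1 and Igf2, while the other neighbours did not. In WT on chow H19 was the seventh of the 9, and on HFMCD it was the second in both genotypes.

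The regulators and relatives of these genes were read in lists, beside the 29.0% of all tested genes called higher and 33.6% called lower on HFMCD in WT, and 33.7% and 36.0% in KO. The list of 17 transcription factors that act on Afp had 2 called higher and 10 lower on HFMCD in WT, and 3 and 11 in KO, with medians of -0.44 and -0.53. Hnf4a, an activator of hepatocyte genes, fell by 0.89 (SE 0.11) in WT and fell by 1.19 (SE 0.11) in KO on the log2 scale. Zbtb20, a repressor of Afp after birth, fell by 0.75 in WT (SE 0.10, adjusted p 1.0e-06, edgeR), and Zfhx3, another repressor of Afp, fell by 1.17 in WT and fell by 1.35 in KO. None of the 17 was called between KO and WT on either diet.

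Other oncofetal and liver tumour genes showed a diet difference too. Of 11 tested, 9 in WT and 10 in KO were called higher on HFMCD and none lower, with medians of 1.41 and 2.10, where 29.0% and 33.7% of all genes were called higher. Spink1, a secreted trypsin inhibitor, had 1 read in all WT chow libraries together and 0 in KO on chow, and reached 1.05 to 2.18 CPM in WT and 0.588 to 1.89 in KO on HFMCD (edgeR adjusted p 3.4e-08 and 8.9e-09). Golm1, a Golgi membrane protein used as a tumour marker, was higher by 2.71 and 2.97 on the log2 scale. Pkm, a pyruvate kinase gene whose forms are not told apart by counts per gene, was higher by 2.84 and 2.68. Exons of Golm1 lie partly over a gene on the other strand. Between KO and WT, none of the 11 was called on either diet in the model of all libraries. On HFMCD, 3 were higher in every KO library than in any WT library, against 4.96% of all genes. With HFMCD libraries alone, 3 were called higher, and 1.5% of all genes were. The summed level of the list was 177.7 to 203.9 CPM in WT and 228.5 to 275.7 in KO on HFMCD.

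Most tested genes of the imprinted network around H19, Igf2 and Dlk1 were called higher on HFMCD, and a few were called lower. Their median log2 fold change was 0.96 in WT and 0.84 in KO, against -0.05 and -0.02 over all tested genes. Of 14 tested, 10 were called higher and 2 lower on HFMCD in WT (29.0% and 33.6% of all genes), and 8 and 3 in KO (33.7% and 36.0%). Plagl1, a zinc finger activator of this network, was higher by 1.78 in WT (SE 0.19) and 1.77 in KO (SE 0.18), and Dcn, a matrix proteoglycan, by 1.88 and 1.75. Peg3 fell by 3.96 in WT (SE 0.24) and fell by 3.77 in KO (SE 0.24), and the transporter gene Slc38a4 fell by 0.58 in WT. Among 12 IGF receptors and binding proteins, 3 were called higher and 4 lower in WT, 2 and 4 in KO, so that neither direction stood above its share of all genes. Igfbp7, a secreted binding protein, was higher by 2.32 in WT and 2.33 in KO, and Insr, the insulin receptor, fell by 0.73 in WT and fell by 0.75 in KO. No gene of these 2 lists was called between KO and WT in the model of all libraries. With HFMCD libraries alone, 1 gene of the imprinted network was called lower in KO, where 2.05% of all genes were called.

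Of 11 Notch pathway genes, the family to which Dlk1 belongs by its extracellular repeats, 2 were called higher and 2 lower on HFMCD in WT, below the shares of all genes (29.0% and 33.6%). The targets Hey1 and Heyl were higher by 2.34 (SE 0.26) and 1.68 (SE 0.24), and the ligand gene Dll1 fell by 1.19 (SE 0.19). In KO, 3 were called higher and 2 lower, also below those shares (33.7% and 36.0%). Among 8 tested genes of the Sox4 group and its TGF-beta inputs, Sox4 included, 6 were called higher and 1 lower in WT, and 7 and 1 in KO, beside the same shares. Tgfb1 was higher by 1.58 in WT (SE 0.14) and 1.68 in KO (SE 0.13), and Sox12, a close relative of Sox4, fell by 1.74 in WT (SE 0.23). Of this list, Sox9 alone was called between KO and WT in the model of all libraries, on HFMCD.

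Within groups, the genes that varied most like each of the 7 were different ones. They were picked as the most alike of many tested genes, so their high values are partly due to that choice. Likeness was measured as Pearson's r of deviations of log2 CPM from the group means over 21 libraries, which share depth and tissue, so that it only describes these libraries. Cd24a was most like Krt19, a keratin of bile duct cells (r = 0.97), and Prom1 most like Dmbt1 (r = 0.96). These values were 0.94 and 0.91 over the 19 libraries without KO chow replicates 1 and 7. The 19 still held WT chow replicates 3 and 5, with Dmbt1 at 41.7 and 27.6 CPM, against at most 0.596 in the others. The value of Prom1 and Dmbt1 thus leans on these 2 libraries, and it was not computed without them. Gpc3 was most like Igfbp6, Boc and the mesothelial gene Msln (r = 0.90, 0.88 and 0.85), and Igfbp6 kept r = 0.90 over the 19 libraries. H19 was most like Slc25a4, Pygm and Ldhb (r = 0.92, 0.92 and 0.90), of which Slc25a4 went to 0.24 without the 2 libraries. Sox4 was most like Kcnn4, Bex3 and Clec10a (0.88, 0.85 and 0.84), Afp most like Entpd7, Pros1 and Ticam1 (0.82, 0.80 and 0.80) and Ly6d most like Anxa5, Acad12 and Nudt9 (0.88, 0.81 and 0.80). Over the 19 libraries, Kcnn4 went to 0.80 for Sox4 and Anxa5 to 0.83 for Ly6d, and neither led any more. Entpd7 stayed first for Afp at 0.83.

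Among the 7 genes themselves, Cd24a and Prom1 varied most alike (r = 0.86 over 21 libraries and 0.60 over 19). Gpc3 and Cd24a followed at 0.73 and 0.60. Afp and Ly6d were at 0.60 and 0.65, while Afp and Cd24a were at -0.33 and -0.62. Dmbt1, to which Prom1 was most alike within groups, was at 0 in all KO libraries on HFMCD, where Prom1 was highest.

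**Figure D4:**
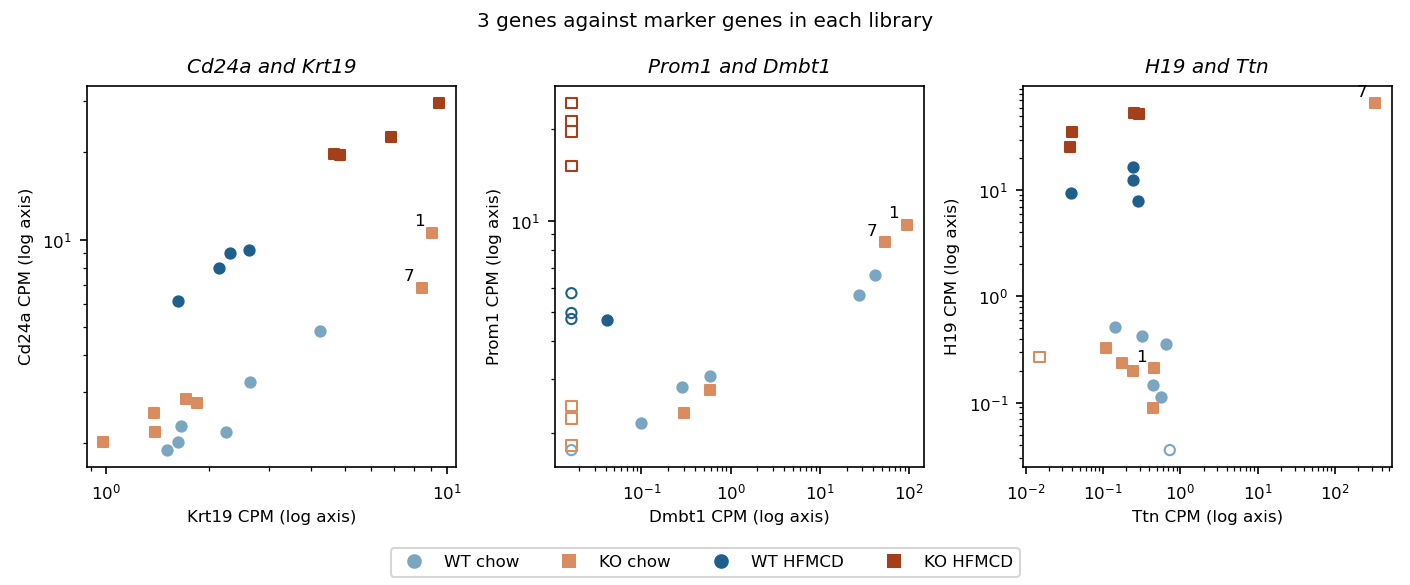
CPM (log axes) of Cd24a against Krt19, Prom1 against Dmbt1 and H19 against Ttn in each library by group; open symbols have 0 reads of one of the genes and are drawn at the edge, and KO chow replicates 1 and 7 are numbered. KO on HFMCD has Cd24a of 19.6 CPM or more with raised Krt19, Prom1 of 15.1 or more with no Dmbt1 and H19 of 25.6 or more with little Ttn, while KO chow replicate 7 pairs H19 at 65.7 with Ttn at 331.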

How the data were processed

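RNA-seq of whole liver gave 1 table of raw read counts per gene symbol for each of 21 libraries, which the authors deposited without normalization. Per the submitters' processing notes, the build was GRCm38 and the tools were featureCounts 1.6.1, STAR 2.6.1d and CASAVA 2.17, with no role for each. The annotation, the strand setting and the handling of shared reads were not given in the sources used here, so reads of genes that overlap on opposite strands (Sox4, Prom1, H19 and others) cannot be told apart. Livers had been perfused with PBS and kept in RNAlater, per the labels' protocols. All 55418 symbols matched GENCODE M21.

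Counts were fitted with edgeR 4.0.16 (R 4.3.3): filterByExpr, which left 15677 genes, TMM scaling, and 1 robust quasi-likelihood model with 4 group means over all 21 libraries. Tests were two-sided, and a gene was called when its p, adjusted by Benjamini and Hochberg over every tested gene of the contrast, was under 0.05. The KO contrast on chow and that on HFMCD share no library, but each diet contrast shares libraries with both. CPM used the scaled total of the tested genes, values are means with SD, and SE belong to log2 fold changes. Log2 CPM for likeness used a prior count of 2. Igf2 and Dlk1, below the filter, were tested by exact permutation of CPM. The code was checked on simulated counts. Alternatives were DESeq2 1.42.0, RLE scaling, no filter, the compared groups only, and leaving out libraries. The likeness without KO chow replicates 1 and 7 was added after seeing the data. The 2 and the 4 chow libraries left out together were chosen from their counts. No 2 libraries were identical.

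All 9 genes were described in every library. From each list of related genes, up to 4 called genes with the smallest p were named per contrast, and for each gene of at least 1 CPM on average the 3 most alike genes. The 9 genes and the lists were chosen with earlier results of these data known. Counting limits cover counting error only, since reads carried no molecular identifiers.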

Additional observations from a re-analysis of the deposited data

Results flagged for a closer look

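Of 32 groups of 4, 6 or 7 libraries examined (each gene in each group where more than 1 library had a read), 3 had 1 library far from the others by Dixon's gap rule, which chance alone gives in about 1 of 20 groups. H19 was at 65.7 CPM in KO chow replicate 7, against at most 0.327 in the other 6 KO chow libraries, and that library also held Ttn at 331 CPM. Gpc3 was at 1.23 CPM in WT chow replicate 3, against at most 0.557 in the other 5, in a library with Dmbt1 at 41.7 CPM. Dlk1 was at 0.211 CPM in KO chow replicate 1, which is 5 reads, in the library with the highest Dmbt1 (95.6 CPM). What these marker genes contribute was not tested.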

How the results depend on the processing

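The diet calls held: 6 of the 7 genes were called in WT in all 21 fits that left out 1 library, and 6 to 7 in KO. For KO against WT on HFMCD the number called was 0 over all libraries, 0 to 3 with 1 library left out, 2 by DESeq2 and 4 in the compared groups only, without the 2 KO chow libraries and without the 4 chow libraries rich in Dmbt1. On chow it was 0, and 1 by DESeq2 (H19). The diet difference of the KO effect went from 0 to 3 and 2 without the 2 and the 4 libraries. Genes called overall moved likewise. On chow, 340 became 705 by DESeq2, 2 in the compared groups only, 144 and 189 without the 2 and the 4 libraries, and 49 to 611 with 1 left out. On HFMCD, 50 became 193 by DESeq2, 32 by RLE scaling, 28 with no filter, 296 in the compared groups, 141 and 175 without the libraries, and 1 to 75 with 1 left out. The difference between diets went from 0 to 97 by DESeq2, 5 with no filter, 84 and 62 without the libraries, and 0 to 8 with 1 left out. The cause was not tested.

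Signs turned in these cases. On chow, H19 was at -0.25 without the 2 libraries, -0.31 without the 4 and -0.26 without replicate 7 alone, Cd24a at -0.15 without the 2, Prom1 at -0.65 and -0.079 (-0.12 and -0.02 without replicate 1 or 7), and Sox4 at -0.11 in both. With 1 library left out, the range on chow was -0.26 to 5.53 for H19 and -0.12 to 0.47 for Prom1. On HFMCD, Gpc3 was at 0.0022 without KO replicate 4 and Ly6d at 0.015 without WT replicate 2 (ranges -0.25 to 0.0022 and -0.26 to 0.015). The H19 difference between diets was 2.10 without the 2 libraries, 2.16 without the 4 and 2.11 without replicate 7 (range -3.69 to 2.11). No paired analysis was possible because the groups share no replicate numbers in the labels. Igf2 and Dlk1 are limited by depth, and Igf2 also by the unknown handling of reads shared with Gm49394.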
